A study of Mus musculus with 6 samples.

Results

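The sperm flagellum is wrapped in structures made almost entirely after meiosis, and 5 of the genes that build them are described here in mouse germ cells: *Odf1*, *Odf2*, *Odf3* and *Odf4*, whose products belong to or lie along the outer dense fibres of the tail, and *Smcp*, which encodes the sperm mitochondria-associated cysteine-rich protein of the mitochondrial capsule. They were chosen by gene symbol, and *Odf3* is the gene now also called *Cimap1a*. The 5 genes were represented by 15 of the 11517 annotated transcripts and 5 of the 7170 genes in the tables, with 7904 reads, which was 0.405% of all reads on annotated transcripts. The cells were sorted from testes of adult C57BL/6J/B6 male mice by DNA content, red fluorescence and light scatter. Spermatocytes in the pachytene and diplotene stages of meiosis (P/D) were set against round spermatids (RS), both wild-type and untreated, with 3 samples each and mRNA from 3 mice pooled in every sample. The 3 P/D samples were barcoded and run as 1 nanopore direct RNA library and the 3 RS samples as another. A difference between cell types therefore cannot be told apart from one between the 2 libraries, and the P/D gate was enriched for these spermatocytes rather than pure, holding a large share of other cells by the study's microscopy and more than the RS gate. According to the study the P/D and RS cells were taken from shared animals, but it does not say which pools match, and the fits treat the samples as independent.

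Outer dense fibres are cytoskeletal rods that accompany the axoneme through the middle and principal pieces of the tail, and the mitochondrial capsule lies around the mitochondria that coil along the middle piece. Both are assembled in elongating spermatids, after transcription has stopped, from mRNAs made earlier and stored. A poly(A) tail, the run of adenosines at the 3′ end of an mRNA, takes part in mRNA stability and translation, and such stored mRNAs are the classic case in which its length matters. *Odf1* encodes a major cysteine-rich fibre protein related to small heat shock proteins, *Odf2* a coiled-coil fibre protein that also serves as a centrosome scaffold, *Odf3* a microtubule-associated protein of the tail, and *Odf4* a further outer dense fibre protein.

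A direct RNA read starts at the poly(A) tail and runs towards the 5′ end of the mRNA, so the 3′ end is what each tail was attached to. The last 30 bases of the most abundant transcript of each gene are given to show that attachment site, written 5′ to 3′ in the sense of the mRNA (T for U), with each AATAAA polyadenylation signal in capitals. They were read from GENCODE vM21 on GRCm38, at chr15:38226706-38226735 (+) for *Odf1*, chr3:92583867-92583896 (−) for *Smcp*, chr7:140850989-140851018 (+) for *Odf3*, chr2:29922510-29922539 (+) for *Odf2* and chr11:68921836-68921865 (−) for *Odf4*, each in the last exon and the 3′ UTR.
Odf1-201: gtaggaaacttaatacagaattgcatctga
Smcp-201: atagcaaagaAATAAAagagcaAATAAAaa
Odf3-201: tattaAATAAAccacagattgcacttgcaa
Odf2-201: tgctgtgaAATAAAagtctggtgtgccaaa
Odf4-203: ggtgatgtggAATAAAttgcccatgtcttc
The annotated end of Odf1-201 held neither AATAAA nor ATTAAA in its last 40 bases, whereas each of the other 14 transcripts held AATAAA. Among the 6901 transcripts tested for tail length and found in that annotation, 61.5% held AATAAA in this window, 16.6% held ATTAAA and 24.4% held neither (same strand only, and both motifs can occur in 1 window). These letters describe the annotated end and not a measured cleavage site. Smcp-201 and Smcp-202 shared 1 annotated end, as did 5 of the 7 *Odf2* transcripts, while Odf2-202 ended at a separate site, position 29931746 of chromosome 2.

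*Odf1* and *Smcp* also shared a coding feature, the cysteine richness already named above for both of their proteins. Cysteine codons (TGT or TGC) made up 16.5% of the 248 codons of Odf1-201 and 22.4% of the 143 codons of Smcp-201. The median was 1.76% over 6328 coding transcripts tested for tail length. Of these, 7 exceeded Odf1-201, Smcp-201 and Smcp-202 among them, and 2 exceeded Smcp-201. The 90 bases with the most cysteine codons are shown for both because this richness gives the fibre and the capsule their disulphide cross-links, with the cysteine codons in capitals. The *Odf1* stretch spans codons 187 to 216 in exonic sequence at chr15:38226416-38226505 (+) and holds 10 of them, and the *Smcp* stretch spans codons 60 to 89 at chr3:92584272-92584361 (−) and holds 12.
Odf1-201: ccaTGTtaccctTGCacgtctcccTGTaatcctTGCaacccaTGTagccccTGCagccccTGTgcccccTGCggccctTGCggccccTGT
Smcp-201: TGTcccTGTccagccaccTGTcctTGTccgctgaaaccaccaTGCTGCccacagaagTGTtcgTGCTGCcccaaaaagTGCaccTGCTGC
The main coding transcripts of the other genes held far fewer, with 0.787% in Odf3-201, 2.04% in Odf2-201 and 2.41% in Odf4-201.

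All 6 samples had between 244004 and 474688 reads, with median tails over all reads of 91.2 to 94.1 nt in P/D and 156 to 160 nt in RS. The 10 listed spermatocyte markers made up 0.668 to 0.727% of reads in P/D and 0.496 to 0.545% in RS. The 10 round spermatid markers made up 0.0447 to 0.0559% in P/D and 0.334 to 0.364% in RS, and the 10 markers of elongating spermatids 0.381 to 0.454% in P/D and 2.21 to 2.73% in RS. Not every marker followed its list. By the count test given below, 6 of the 10 spermatocyte markers were lower in RS and 2 higher. Of the round spermatid markers 9 were higher and 0 lower, and of the elongating spermatid markers 9 were higher and 1 lower. Markers of somatic cells were scarce, with 1 to 2 reads per P/D sample and 0 to 3 per RS sample for 6 Sertoli genes, 3 to 7 and 1 to 5 for 6 Leydig genes, and no read of the 4 genes of peritubular myoid cells and macrophages, while 6 spermatogonial genes gave 2 to 5 reads in P/D and 0 to 2 in RS. The somatic and spermatogonial reads came from *Amhr2*, *Cldn11*, *Clu*, *Insl3* and *Uchl1*, and the other defining genes, among them *Sox9*, *Wt1*, *Star*, *Kit* and *Zbtb16*, had none. Spermatid markers were thus present in the P/D samples at 14.8% (round) and 16.3% (elongating) of their RS share, and their part in the P/D values below was not tested.

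Relative to library size, all 5 genes had more reads in RS than in P/D, but they did so on very different scales. *Odf1*, *Smcp* and *Odf3* rose 9.21- to 11.4-fold, whereas *Odf2* and *Odf4*, both plentiful in the P/D samples relative to their own RS level, rose 1.66- and 1.42-fold. Of all 4931 genes tested, 34.0% were called higher in RS (an adjusted p under 0.05 in edgeR's quasi-likelihood test with Benjamini-Hochberg adjustment), and the middle value of their log2 fold changes was −0.03. In sorted populations of this kind, a change in the number of cells that express a gene and a change in its RNA per cell cannot be told apart. The values of each sample are also given below in CPM, the read counts scaled to library size.

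*Odf1* gave 31, 40 and 19 reads in P/D replicates 1 to 3 and 384, 514 and 465 reads in RS. These were 125, 128 and 71.4 CPM in P/D and 1218, 1112 and 1369 in RS, so that every RS sample stood far above every P/D sample. The log2 fold change was 3.51 ± 0.15 (SE, n = 3 and 3), or 11.4-fold with a 95% interval of 9.22 to 14.1 (edgeR adjusted p = 2.28e-28).

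*Smcp* followed it closely. It gave 47, 50 and 23 reads in P/D and 428, 638 and 564 in RS, that is 190, 160 and 86.5 CPM against 1358, 1381 and 1660. The log2 fold change was 3.35 ± 0.15 (SE), 10.2-fold with an interval of 8.28 to 12.5 (edgeR adjusted p = 4.78e-28). For *Odf1* and *Smcp* alike, P/D replicate 3 was the lowest sample.

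*Odf3* was sparse in P/D, with 7, 12 and 4 reads, and had 80, 87 and 115 reads in RS. This gave 28.2, 38.4 and 15.0 CPM in P/D against 254, 188 and 339 in RS, with no overlap. The log2 fold change was 3.20 ± 0.28 (SE), 9.21-fold with an interval of 6.24 to 13.6 (edgeR adjusted p = 1.85e-15). *Odf3* passed the filter on counts through its RS samples, where it is high. It could not be tested where 10 counts were required in every sample. The P/D means of *Odf1*, *Smcp* and *Odf3* were 8.77%, 9.91% and 10.5% of their RS means, which lies below the 14.8% of the round spermatid markers as a group.

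*Odf2* was abundant in the P/D samples, with 347, 489 and 349 reads, and gave 684, 1301 and 679 in RS. In CPM these were 1399, 1563 and 1312 against 2170, 2816 and 1999, where RS replicate 2 was the highest. Its log2 fold change was 0.73 ± 0.10 (SE), 1.66-fold with an interval of 1.44 to 1.91 (edgeR adjusted p = 6.75e-09).

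*Odf4* moved least, from 68, 69 and 52 reads in P/D to 92, 141 and 125 in RS. Its values of 274, 221 and 195 CPM in P/D came close to the 292, 305 and 368 of RS without overlapping them. The log2 fold change was 0.50 ± 0.16 (SE), 1.42-fold with an interval of 1.13 to 1.77 (edgeR adjusted p = 0.00512).

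**Figure D1:**
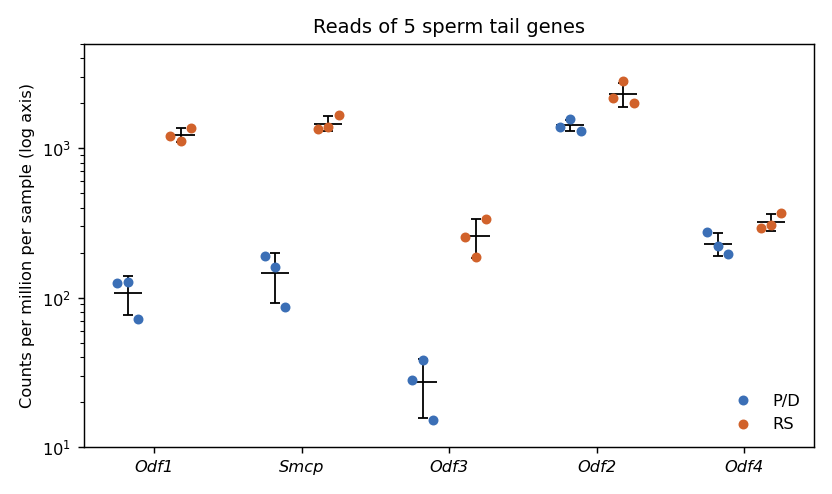
CPM of each gene (log axis) in the 3 P/D samples (blue) and the 3 RS samples (orange), with the mean and SD in black. The P/D points of Odf1, Smcp and Odf3 lie about an order of magnitude under their RS points, whereas for Odf2 and Odf4 the gap is narrow, with P/D means of 1425 and 230 against RS means of 2328 and 322.

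Poly(A) tail length split the same genes in the opposite way. The 2 genes with the smallest rise in reads, *Odf2* and *Odf4*, had tails that were 46.9 and 49.7 nt longer in RS and passed the test, and no gene had shorter tails by the test. *Odf1* and *Smcp* had long tails in the P/D samples and did not pass. Their P/D CPM were 8.77% and 9.91% of RS, below the 14.8% of the round spermatid markers. Whether those P/D tails belong to spermatocyte or to spermatid mRNA was not tested. *Odf3* did not pass either. It met the read minimum through its RS samples alone and had too few P/D reads to place it with either pair. The 2 of 5 genes called longer stand against 54.9% of the 5365 genes tested (limma on the mean tail per sample, with the same adjustment and threshold) and a median difference of 35.0 nt over all of them; 2.14% were called shorter.

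*Odf2* tails averaged 125, 119 and 120 nt in P/D and 168, 167 and 170 nt in RS. The samples of each cell type lay within a few nt of each other and the groups were far apart. The means were 121 ± 3.3 nt (SD, n = 3) and 168 ± 1.6 nt (SD, n = 3), a difference of 46.9 ± 4.8 nt (SE) with a 95% interval of 35.3 to 58.5 nt (limma adjusted p = 0.000411).

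*Odf4* showed nearly the same lengths on far fewer reads. Its tails averaged 129, 120 and 119 nt in P/D and 168, 170 and 178 nt in RS, with no overlap. The difference was 49.7 ± 5.8 nt (SE), with an interval of 35.7 to 63.8 nt (limma adjusted p = 0.000651).

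*Odf1* tails averaged 174, 182 and 165 nt in P/D and 176, 176 and 178 nt in RS, and P/D replicate 2 exceeded every RS sample. The difference of 3.08 ± 5.9 nt (SE) had an interval of −11.3 to 17.5 nt and did not pass the test (limma adjusted p = 0.688). It was −1.06 nt without P/D replicate 3, which held 19 reads.

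*Smcp* behaved likewise, with 166, 164 and 172 nt in P/D and 176, 169 and 175 nt in RS. P/D replicate 3 lay above the lowest RS sample. The difference was 5.83 ± 5.2 nt (SE), with an interval of −6.88 to 18.5 nt (limma adjusted p = 0.382). These intervals leave room for differences of up to 17.5 nt in *Odf1* and 18.5 nt in *Smcp*, and exclude the median difference of 35.0 nt over all genes.

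*Odf3* had the longest tails of the 5 genes in RS, at 198, 199 and 201 nt, after 147, 191 and 178 nt in P/D. All RS samples lay above all P/D samples, but the P/D means rested on 7, 12 and 4 reads and spread by 22.8 nt (SD). The difference of 27.1 ± 11.6 nt (SE, interval −1.21 to 55.5 nt) did not pass the test (limma adjusted p = 0.0925). It was 36.6 nt and passed without P/D replicate 2 (limma adjusted p = 0.0297), and 14.5 nt without P/D replicate 1, and taking the median of the reads in place of their mean gave 9.17 nt.

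**Figure D2:**
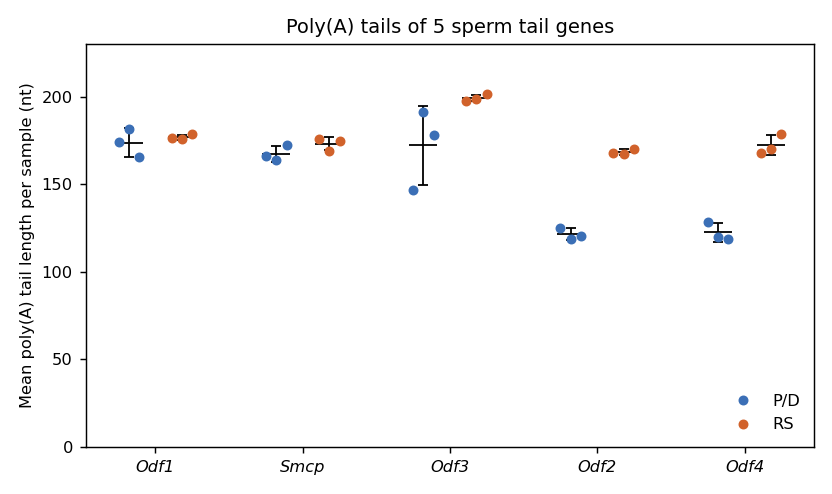
Mean poly(A) tail length per sample in nt for the 5 genes in P/D (blue) and RS (orange), with the mean and SD of the 3 samples in black. Odf1 and Smcp sit between 164 and 182 nt in both cell types, and Odf2 and Odf4 move from between 119 and 129 nt to between 167 and 178 nt.

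Among the 5365 genes, 269 had a longer mean tail in P/D than *Odf1*, 297 than *Odf3* and 384 than *Smcp*, with the median gene at 115 nt, whereas 2247 exceeded *Odf2* and 2185 exceeded *Odf4*. In RS, where the median gene had 158 nt, the genes with longer tails numbered 802 for *Odf1*, 1097 for *Smcp*, 1214 for *Odf4* and 1589 for *Odf2*, while 97 exceeded *Odf3*. These ranks describe the genes and carry no test.

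The distances between genes were also computed within each sample, for all 10 pairs, a step added after the values above were known. *Odf1* tails were longer than *Odf2* tails by 48.6, 62.8 and 45.2 nt in the P/D samples and by 8.19, 8.68 and 8.39 nt in the RS samples. *Odf2* and *Smcp* stood 45.9 ± 6.0 nt apart (SD, n = 3) in P/D and 4.88 ± 2.9 nt apart in RS, with *Smcp* the longer. By contrast the *Odf2* to *Odf4* distance was −0.99 ± 2.5 nt in P/D and −3.85 ± 4.4 nt in RS, and the *Odf1* to *Smcp* distance was 6.29 ± 12.7 nt and 3.54 ± 3.2 nt. The P/D and RS distances did not overlap in 5 of the 10 pairs, namely *Odf1* or *Smcp* against *Odf2* or *Odf4*, and *Odf1* against *Odf3*. The last of these rests on the 4 to 12 P/D reads of *Odf3*. Each of the 5 had p = 0.1 in an exact permutation test (two-sided), the smallest p that 3 against 3 samples can give. The adjusted p was 0.2 over the 10 pairs. The share of all gene pairs without overlap was not computed, and these changes in distance restate the tail differences above.

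**Figure D3:**
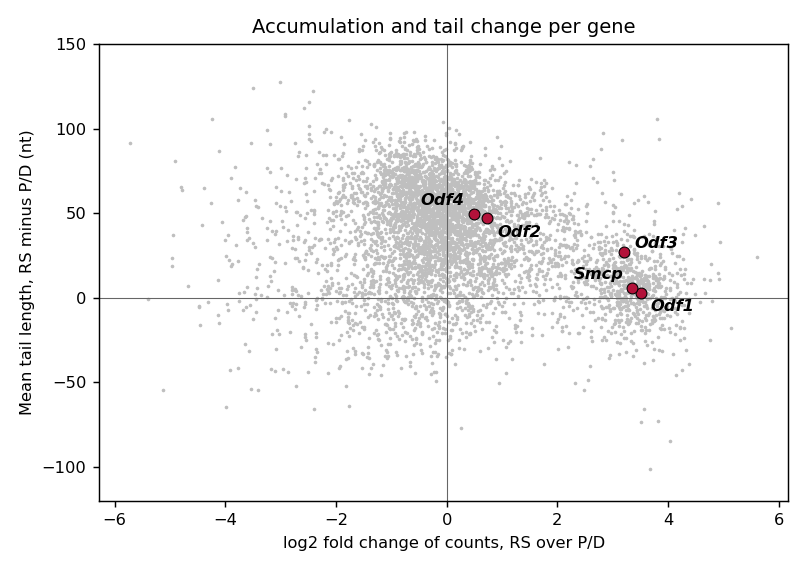
Each grey point is 1 of the 4873 genes tested for both measures, with the log2 fold change of counts (RS over P/D) on the horizontal axis and the difference of mean tail length (RS minus P/D, nt) on the vertical axis; 2 genes fall beyond the vertical axis. Odf1 and Smcp lie at the right close to a tail difference of 0, Odf3 above them, and Odf2 and Odf4 near the centre at 46.9 and 49.7 nt.

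Among the 549 genes with a log2 fold change of at least 3, 464 reached the read minimum of the tail test through their RS samples alone. The other 85, with 10 reads in at least 2 P/D samples as *Odf1* and *Smcp* had, showed a median P/D tail of 162 nt and a median difference of 2.80 nt, and 4.71% were called longer. Of the 2661 such genes with a log2 fold change between −1 and 1, the range that holds *Odf2* and *Odf4*, the median P/D tail was 108 nt, the median difference 46.0 nt, and 73.9% were called longer. The first set had a median of 44 P/D reads over the 3 samples and the second 105, so that calls in the first rest on less data, and these values are a description without a test.

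The single reads show what the means hide. Reads were counted in a shorter class, 30 to 120 nt, and a longer class, 120 to 210 nt, which bracket the tails of about 60 and 150 nt typical of P/D and RS transcripts. In *Odf2*, 50.1%, 50.5% and 53.0% of P/D reads were in the shorter class and 42.7%, 44.4% and 40.7% in the longer one. In RS the longer class held 88.5%, 85.2% and 85.9% of its reads and the shorter one 4.53%, 6.46% and 4.86%. *Odf2* mRNA in P/D was thus a mixture of both classes, from 53.0 to 59.7 nt at the 10th percentile of its reads to 185 to 196 nt at the 90th, and the SD among its reads averaged 54.3 nt in P/D and 33.8 nt in RS.

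*Odf4* had 33.8%, 33.3% and 19.2% of P/D reads in the longer class, where P/D replicate 3 was the lowest, and 73.9%, 83.0% and 81.6% in RS. Its shorter class fell from 51.5%, 58.0% and 69.2% to 12%, 7.80% and 4.80%. In *Odf1* the longer class held 93.5%, 85.0% and 84.2% of P/D reads and 85.2%, 86.6% and 85.6% of RS reads, with the groups overlapping. *Smcp* likewise had 95.7%, 88.0% and 82.6% in P/D and 86.4%, 88.7% and 91.7% in RS.

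The longer class differed by 43.9 percentage points in *Odf2* and 50.7 in *Odf4*, each with p = 0.1 (exact permutation test, two-sided, 3 against 3 samples, the smallest p possible; adjusted p = 0.2 over 8 tests). The differences of −1.81 points in *Odf1* and 0.159 points in *Smcp* had p = 1 in the same exact test. Of the 2879 genes that reached 10 reads in each of the 6 samples, 80.3% had the longer class higher in every RS sample than in every P/D sample, as *Odf2* and *Odf4* did. The P/D shares of *Odf1* and *Smcp* come from 19 to 50 reads per sample, and a single share such as the 29 of 31 *Odf1* reads in P/D replicate 1 has a 95% Wilson interval of 79.3 to 98.2%, which covers counting error only.

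**Figure D4:**
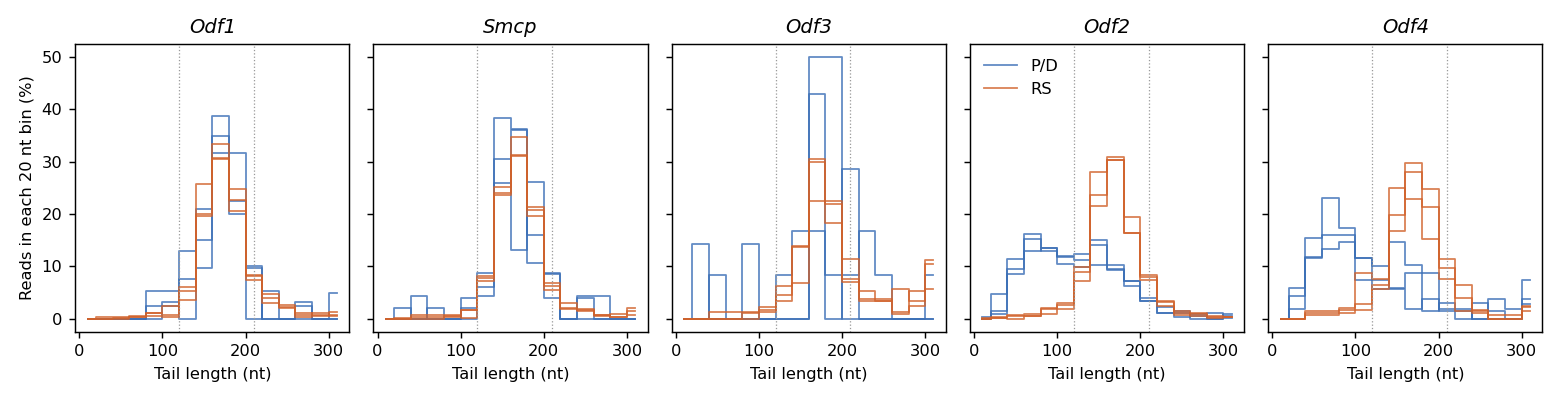
Share of reads (%) in 20 nt bins of tail length for each gene, 1 line per sample, P/D in blue and RS in orange; the last bin holds all tails of 300 nt or more, and dotted lines mark 120 and 210 nt. The P/D and RS lines of Odf1 and Smcp share 1 peak, those of Odf2 and Odf4 show a broad P/D distribution under 120 nt that is nearly empty in RS, and the P/D lines of Odf3 are ragged because they hold 4 to 12 reads.

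At the level of transcripts, 12 of the 15 passed the filters for both measures, and Odf2-202, Odf3-202 and Odf3-203 had too few P/D reads or too few reads in all. Tails were called longer in RS for 9 of the 12, against 54.2% of 6990 transcripts, and counts were called higher for 10 of the 12, against 32.6% of 6005 transcripts. The 9 came from *Odf2*, *Odf4* and Smcp-202 alone, and transcripts of the same gene are not independent members. By gene, 2 of 5 were called longer, against 54.9% of all genes. Odf3-201 and Smcp-202, both among the 10 called higher, passed the filter on reads through their RS samples, where they are high. Apart from Odf2-202, the *Odf2* transcripts with reads described here have the same or nearly the same annotated 3′ end. The same holds, within each gene, for the *Odf3*, the *Odf4* and the *Smcp* transcripts. A read cut short at its 5′ end can therefore be assigned to the wrong transcript of its gene.

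*Odf2* was spread over 7 transcripts. Odf2-201, the most abundant, lies at chr2:29890063-29922539 (+) and has 17 exons, 2376 bases and a coding stretch of 1914 bases. It held 38.6%, 35.6% and 37.0% of *Odf2* reads in P/D and 29.97%, 25.4% and 24.9% in RS, a difference of −10.3 percentage points without overlap (exact permutation p = 0.1, the smallest possible). Its reads went from 134, 174 and 129 in P/D to 205, 330 and 169 in RS, a log2 fold change of 0.24 ± 0.13 (SE) that did not pass the test (edgeR adjusted p = 0.114), although it did without RS replicate 3, at 0.43 (edgeR adjusted p = 0.0083).

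The other 5 tested *Odf2* transcripts rose. Odf2-203 rose most, from 28, 44 and 30 reads in P/D to 67, 203 and 106 in RS, with a log2 fold change of 1.41 ± 0.21 (SE, edgeR adjusted p = 1.49e-07). Its share of *Odf2* reads was 8.07%, 8.998% and 8.596% in P/D and 9.80%, 15.6% and 15.6% in RS. The log2 fold changes of Odf2-207, Odf2-208, Odf2-209 and Odf2-211 were 0.99, 0.75, 1.12 and 0.77.

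All 6 tested *Odf2* transcripts had longer tails in RS, by 41.6 nt (Odf2-201) to 56.7 nt (Odf2-211). Their RS means lay close together, from 166 to 173 nt, whereas their P/D means ranged from 111 nt (Odf2-211) to 128 nt (Odf2-201). Odf2-201 tails exceeded Odf2-211 tails by 14.7, 19.8 and 18.1 nt in the P/D samples and by 6.42, −0.17 and 1.13 nt in the RS samples. The within-sample difference was 17.5 ± 2.6 nt (SD, n = 3, exact sign-flip p = 0.25, the smallest that 3 samples can give) in P/D and 2.46 ± 3.5 nt (exact sign-flip p = 0.5) in RS. Odf2-209 had 10 to 16 reads in the P/D samples, and its call (53.4 nt, limma adjusted p = 0.0248) was lost when any of the 3 RS samples was left out, at 51.6 to 54.6 nt. Odf2-202, which ends at the distal site, had 1, 4 and 6 reads in P/D and 5, 8 and 9 in RS, 0.942% and 0.890% of *Odf2* reads on average.

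Both *Odf4* transcripts were detected in every sample. The more abundant, Odf4-203, is annotated as a nonsense-mediated decay transcript at chr11:68921836-68927081 (−) with 5 exons, and the coding transcript Odf4-201 lies at chr11:68921835-68927049 (−), also with 5 exons. Odf4-203 held 55.9%, 65.2% and 73.1% of *Odf4* reads in P/D and 70.7%, 63.8% and 64.8% in RS, with overlapping groups (difference 1.70 percentage points, exact permutation p = 1).

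Tails of Odf4-203 averaged 148, 120 and 119 nt in P/D and 167, 169 and 185 nt in RS. Those of Odf4-201 averaged 103, 121 and 118 nt against 168, 173 and 166 nt. The increases were 44.8 ± 10.4 nt (SE, limma adjusted p = 0.0116) and 55.0 ± 6.8 nt (SE, limma adjusted p = 0.00102). Within samples, Odf4-203 minus Odf4-201 was 44.9, −0.88 and 0.67 nt in P/D, so that P/D replicate 1 alone set the mean of 14.9 nt; it was −0.11 nt without that sample. Counts of Odf4-203 rose (log2 fold change 0.53 ± 0.19, SE, edgeR adjusted p = 0.012), and those of Odf4-201, at 0.40 ± 0.26, did not pass (edgeR adjusted p = 0.178; 0.69 with adjusted p = 0.0419 without P/D replicate 1, and 0.14 with adjusted p = 0.678 without P/D replicate 3).

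*Odf1* had 1 transcript, Odf1-201, at chr15:38219203-38226735 (+), with 2 exons, 1105 bases and a 3′ UTR of 131 bases. *Smcp* had 2, each with 2 exons and the same coding stretch of 429 bases and 3′ UTR of 240 bases. Smcp-201, at chr3:92583867-92588997 (−), held 96.5 ± 4.5% of *Smcp* reads in P/D and 92.6 ± 3.0% in RS (SD, n = 3, exact permutation p = 0.3). Its tails averaged 167, 164 and 172 nt in P/D and 176, 170 and 175 nt in RS, 5.28 ± 5.6 nt longer (SE, limma adjusted p = 0.461).

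Smcp-202 begins at a more 3′ site, at chr3:92583867-92586204 (−). It had 4, 1 and 0 reads in P/D and 17, 54 and 55 in RS. Its tails, 149 and 133 nt in the 2 P/D samples that had a read and 182, 161 and 174 nt in RS, were called 31.3 ± 9.8 nt longer (SE, limma adjusted p = 0.043), but this rests on 5 P/D reads and was lost without RS replicate 1 (26.5 nt) or RS replicate 3 (30.3 nt), and also by medians (27.1 nt), on the log2 scale, with no read minimum and under a replicate block (limma adjusted p = 0.0584 to 0.0755 over these 4). Within RS samples, where both had at least 10 reads, Smcp-201 minus Smcp-202 was −6.30, 9.15 and 0.36 nt (exact sign-flip p = 0.75).

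*Odf3* had 3 transcripts. Odf3-201, at chr7:140847805-140851018 (+) with 7 exons, gave 6, 11 and 4 reads in P/D and 68, 71 and 99 in RS. The tails of Odf3-201 averaged 145, 194 and 178 nt in P/D and 182, 194 and 187 nt in RS. Its difference of 15.6 ± 13.1 nt (SE) did not pass (limma adjusted p = 0.354), and it was 1.80 nt without P/D replicate 1, 26.4 nt without P/D replicate 2 and 0.81 nt by medians. Odf3-203, annotated as a retained-intron transcript at chr7:140847824-140851011 (+), had 10, 12 and 11 reads in RS and 0, 1 and 0 in P/D.

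The tails of Odf3-203 averaged 302, 214 and 307 nt in the RS samples, the longest mean over RS among the 15 transcripts. Tails of 210 nt or more made up 80.0%, 41.7% and 90.9% of its RS reads, against 16.2%, 23.9% and 17.2% of Odf3-201 reads. Odf3-201 minus Odf3-203 was −119, −20.1 and −120 nt within the RS samples, the same sign in all 3 (exact sign-flip p = 0.25, the smallest possible), and RS replicate 2 stood apart from the other two. Odf3-202 had 1, 0 and 0 reads in P/D and 2, 4 and 5 in RS.

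**Figure D5:**
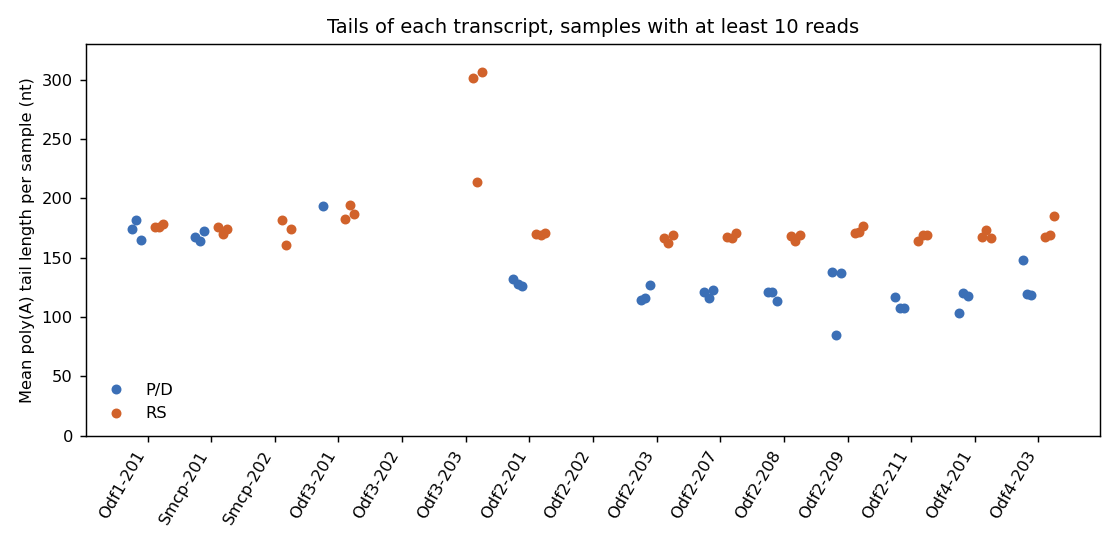
Mean poly(A) tail length in nt of each transcript in samples where it had at least 10 reads, P/D in blue and RS in orange; Odf2-202 and Odf3-202 had no such sample. RS values of the Odf2 and Odf4 transcripts lie between 162 and 185 nt, above the P/D values of the same transcript, and Odf3-203 reaches 302 and 307 nt in 2 RS samples.

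For each gene, the 3 genes with the most similar values were found by the distance over 12 values, the mean tail and log2 CPM in the 6 samples, each divided by its SD, among 1873 other genes with at least 20 reads in every sample. *Odf1* and *Smcp* had the same 3 neighbours in the same order: *Oaz3*, which encodes the spermatid form of ornithine decarboxylase antizyme, *Irgc1* and *Gsg1*, at distances of 1.71 to 2.48 from *Odf1* and 1.12 to 2.10 from *Smcp* (the median gene was at 7.79 and 7.36). *Oaz3* tails averaged 161 ± 4.4 nt (SD, n = 3) in P/D and 171 ± 2.9 nt in RS, with a log2 fold change of 3.20. Few genes with so steep a rise could be candidates. Of the 549 genes with a log2 fold change of at least 3, 464 met the read minimum of the tail test through RS alone. The shared neighbours were thus drawn from a small pool, and *Odf1*, with 19 reads in its lowest sample, fell under the 20 required of a candidate.

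*Odf2* lay closest to *Tcp11*, *Csnk2b*, which encodes the regulatory subunit of casein kinase 2, and *4922502D21Rik*, at distances of 0.957 to 1.14 with a median gene at 7.05. *Tcp11* tails went from 113 ± 1.1 to 171 ± 0.86 nt (SD, n = 3). *Odf4* lay closest to *Ccnk*, *Ghitm* and *Lin7a*, at 0.742 to 0.812 with a median gene at 3.51. For *Odf3* the nearest were *Dgka*, *5330417C22Rik* and *Aldoa*, at 3.18 to 3.76 against a median of 8.63, but with 4 to 12 P/D reads it lies below the reads required of a candidate, so genes at its own P/D level were not searched.

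Other genes of the flagellum and neck were listed by structure, and 23 of the 25 with reads were tested. In counts, 17 of the 23 were higher in RS and 0 lower, against 34.0% and 32.6% of all genes, and the median log2 fold change was 2.01. In tails, 8 of the 23 were called longer and 0 shorter, against 54.9% and 2.14% of all genes. However, 10 of the 23 reached the read minimum of the tail test through their RS samples alone. Genes with so few P/D reads could hardly be called lower in RS, so the count calls lean towards RS. The 8 were all among the other 13, which had a median difference of 37.9 nt, beside 65.2% longer and a median of 42.5 nt over the 4066 genes with 10 reads in at least 2 P/D samples.

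Among 8 tested partners of the outer dense fibres and of ODF1, 2 had longer tails and 4 had more reads. *Vdac3*, an outer mitochondrial membrane channel, had the largest tail difference, from 94.4 to 160 nt (65.8 ± 6.3 nt, SE, limma adjusted p = 0.000348), with a log2 fold change of 0.15 that did not pass (edgeR adjusted p = 0.241). *Wdr64*, with 1 read in each P/D sample and 14, 41 and 18 in RS, had the smallest, −20.2 ± 19.0 nt (limma adjusted p = 0.406), so that each P/D value is a single tail, and the highest log2 fold change, 4.04 (edgeR adjusted p = 2.67e-09). *Spag5*, a spindle protein that binds ODF1, had the lowest, −0.17 (edgeR adjusted p = 0.551).

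Among 7 tested genes of the mitochondrial sheath, 4 had longer tails and 5 had more reads. *Gykl1*, a glycerol kinase-like gene, had the largest tail difference, from 101 to 158 nt (56.3 ± 4.9 nt, SE, limma adjusted p = 0.00028). *Gpx4*, whose selenoprotein is a structural part of the mitochondrial capsule beside SMCP, went from 102 to 147 nt (45.5 ± 5.0 nt, SE, limma adjusted p = 0.000523), and its log2 fold change was the lowest of the list, −0.12 (edgeR adjusted p = 0.25). *Spata19*, a spermatid mitochondrial protein, had the highest log2 fold change, 3.58 (edgeR adjusted p = 3.59e-27), and tails of 180 nt in P/D and 163 nt in RS, a difference of −17.0 ± 6.1 nt (SE) that did not pass (limma adjusted p = 0.055; −21.5 nt and adjusted p = 0.0227 without P/D replicate 3).

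Among 7 tested genes of the head-tail coupling apparatus, 2 had longer tails and 7 had more reads. *Spata6*, needed to form the connecting piece of the neck, had the largest tail difference, from 117 to 181 nt (63.8 ± 5.4 nt, SE, limma adjusted p = 0.000275), with a log2 fold change of 1.68. *Pmfbp1*, another protein of this junction, had the highest log2 fold change, 3.50, and tails of 168 and 177 nt (limma adjusted p = 0.196), on 5, 8 and 6 reads in P/D. *Hook1*, a manchette protein, had the smallest tail difference, −22.1 ± 7.8 nt (SE, limma adjusted p = 0.051; −29.5 nt and adjusted p = 0.00804 without P/D replicate 1, but −1.10 nt by medians and −1.82 nt over tails of 10 to 300 nt), and *Tsga10* the lowest log2 fold change, 0.97. In the wider *Odf3* family only *Odf3l1* was tested, with a log2 fold change of 2.93 (edgeR adjusted p = 6.08e-12) and a tail difference of 27.5 ± 29.0 nt (SE, limma adjusted p = 0.459). It had 4, 14 and 1 reads in P/D.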

How the data were processed

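Poly(A) RNA of sorted germ cells was sequenced by nanopore direct RNA sequencing. The authors aligned reads (minimap2 2.20-r1061 and SAMtools per the labels, build mm10) and deposited raw read counts per transcript and, for each read, its contig and its tail length in nt as estimated with Nanopolish; this other measure is not normalized. Counts equalled the number of listed tails in every cell (0 differences). Each sample is 1 barcoded pool, so p-values measure the spread between pools.

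Transcripts were joined to genes through GENCODE vM21 (11344 of 11517 found). Mean tails per sample were tested with limma 3.58.1 for features that reached 10 reads in 2 or more samples of P/D or of RS and had 2 or more means in both; all samples weigh equally whatever their reads. Counts were tested with edgeR 4.0.16 (TMM, filterByExpr), with DESeq2 1.42.0 as an alternative. P-values were adjusted by Benjamini-Hochberg over all features. Single values were tested with exact permutation or sign-flip tests (scipy 1.17.1). CPM are counts over TMM-scaled library sizes. Both fits were tested on simulated data. The members and lists were chosen with earlier results of these data known. Named were all member transcripts, the 3 genes most alike to each member, and the extremes of each list. Sequences were read from GENCODE vM21; the promoter table was not used.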

Additional observations from a re-analysis of the deposited data

How the results depend on the processing

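Of 400 recomputed fold changes and tail differences of the 5 genes and their transcripts, 381 kept their direction and their side of the threshold. Genes called longer numbered 2 to 3 and genes called higher 4 to 5, the lower count where *Odf3* lacked the reads required in every sample; 0 were called shorter or lower under any alternative. Transcripts called longer numbered 7 to 9 and transcripts called higher 9 to 12. The replicate block gave 2 genes and 8 transcripts longer and 5 genes and 10 transcripts higher, the lost call being Smcp-202 (30.3 nt, adjusted p = 0.0746); correlations of same-numbered P/D and RS samples were 0.029, 0.038 and 0.0035 in transcript tails and 0.016, 0.18 and 0.045 in counts, so the numbers were not taken as pairs. Over all features, requiring 10 reads in every sample, which leaves fewer to test, gave 2473 transcripts longer, 768 transcripts higher and 725 lower, and 809 genes higher and 774 lower; no count filter gave 3404 transcripts higher, and the methods' t-test after adjustment 73 genes shorter. Leaving out 1 sample gave 66 to 141 transcripts and 66 to 131 genes shorter. The other genes of the flagellum and neck gave 8 to 9 longer, 8 with 10 reads in 2 P/D samples (added after seeing the data); 2 were shorter by the methods' unadjusted t-test and 2 with 10 reads in every sample, 0 to 1 when 1 sample was left out, and 10 were higher with 10 counts in every sample. The following values changed sign, and the cause was not tested. Leaving out 1 sample put the *Odf1* tail difference (gene and Odf1-201 alike) at −1.06 to 7.12 nt, *Odf3l1* at −7.56 to 46.5 nt, *Spag5* at −13.5 to 6.87 nt (1.13 nt by medians, 0.041 on the log2 scale), *Wdr64* at −34.2 to 1.24 nt and the *Gpx4* log2 fold change at −0.204 to 0.051 (0.032 with 10 counts in every sample). The share of 120 to 210 nt tails, RS minus P/D, ranged over −3.50 to 1.17 percentage points in *Odf1* and −2.93 to 3.64 in *Smcp*; with 180 nt as the upper bound it was 1.18 and −1.93, and −0.33 for Smcp-201 alone. The share of *Odf4* reads on Odf4-203 differed by −2.72 to 5.88 points. Odf4-203 minus Odf4-201 tails ranged over −0.11 to 22.8 nt in P/D and −2.29 to 9.10 nt in RS, and Smcp-201 minus Smcp-202 over −2.97 to 4.75 nt in RS (−1.80 nt by medians). The few P/D reads of *Odf1*, *Smcp* and *Odf3* limit their tail comparisons most.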
